A study of Mus musculus with 9 samples.

Results

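The genes described here are the replication licensing factors and Pcna, a set of 10 genes (Mcm2, Mcm3, Mcm4, Mcm5, Mcm6, Mcm7, Mcm10, Pcna, Cdt1 and Cdc6) out of 22180 measured by name in sorted mouse microglia. They were chosen by gene symbol, and each is represented by its brightest probe set (a group of array probes summarised to 1 value) that carries that symbol alone. Every member had such a probe set, so all 10 were measured. Microglia, the resident macrophages of the brain, had been isolated by FACS from perfused brains of female C57Bl/6 mice aged 24 to 28 weeks.

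The FAD DKO group carried the familial Alzheimer's disease (FAD) transgenes, floxed Hdac1 and Hdac2 (Hdac1/2fl/fl) and Cx3cr1CreERT2, a tamoxifen-inducible Cre at the fractalkine receptor locus. The FAD group had genotype FAD Hdac1/2fl/fl without the Cre, and the wild type group was labelled Wildtype with no floxed allele stated. Tamoxifen (8 mg, at 6 weeks of age) had been given to the mice of all 3 groups, the wild type included. FAD DKO and FAD mice differ in the Cre allele as well as in the deletion, and Cx3cr1 is also active in other mononuclear phagocytes. Each group had 3 arrays. Nothing in the labels says that arrays of a group come from separate mice, so p-values measure the spread between these samples, which may be technical.

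In proliferating cells, Cdc6 and Cdt1 load the ring of Mcm2 to Mcm7 onto origins marked by the origin recognition complex, a step called licensing. Mcm10 then helps to activate the loaded helicase, and Pcna forms the sliding clamp that holds DNA polymerases and repair factors on DNA. Most of these genes are classical targets of E2F transcription factors, whose pocket protein partners recruit class I histone deacetylases to promoters, and adult microglia divide slowly but multiply around amyloid plaques.

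The promoters of the members are shown because E2F-type sequences, which the choice of genes did not use, were found in most of them. Promoter sequences, covering 250 bases before to 50 after the transcript start, were taken from RefSeq (GRCm38.p6), where 9 of the 10 members matched by symbol and Mcm4 was named only. The words TTTCCCGC, TTTCGCGC, TTTGCCGC and TTTGGCGC were searched on both strands, so a match may read as a reverse complement. At least 1 of them stood in the promoters of 6 of the 9 genes (Mcm3, Mcm5, Mcm6, Mcm7, Cdt1 and Cdc6). Of all 32851 promoters of that length, 2.26% held one, and of all 27025 genes with a promoter, 2.6% did. Shares in related lists varied. Matches stood in 2 of 3 other MCM-related genes, 5 of 10 E2F and pocket protein genes and 4 of 8 PCNA-associated chromatin and repair genes. They stood in 6 of 19 fork enzyme genes, 2 of 6 for origin recognition, 2 of 6 for helicase activation and 2 of 7 clamp loaders and unloaders. Licensing inhibitors and turnover factors had 1 of 6, mitotic markers 1 of 17 and deoxynucleotide supply 0 of 6. No match was found for Mcm2, Mcm10 or Pcna, which says only that these letters are not in those windows. The word CCAAT, searched in the same way, was present in 7 of the 9 members and in 37.4% of all promoters. A match is a description of the letters and not of binding.

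The stretches around the matches are printed 5′ to 3′ on the strand of each gene, with the matched letters in capitals.
Mcm6, chr1:128359709-128359833, minus strand, bases -128 to -4 from the start: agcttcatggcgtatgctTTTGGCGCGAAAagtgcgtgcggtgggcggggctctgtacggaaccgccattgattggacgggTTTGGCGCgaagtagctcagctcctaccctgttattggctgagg
Mcm5, chr8:75109338-75109403, plus strand, bases -171 to -106: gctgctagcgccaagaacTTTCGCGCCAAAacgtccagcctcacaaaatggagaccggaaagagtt
Mcm7, chr5:138172005-138172066, minus strand, bases -183 to -122: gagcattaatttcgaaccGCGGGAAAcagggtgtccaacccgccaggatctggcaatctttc
Cdc6, chr11:98907995-98908056, plus strand, bases -156 to -95: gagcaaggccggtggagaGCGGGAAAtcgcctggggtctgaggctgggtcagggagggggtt
Mcm3, chr1:20820266-20820294, minus strand, bases 19 to 47 after the start: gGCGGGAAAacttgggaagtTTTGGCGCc
Cdt1, chr8:122568036-122568064, plus strand, bases 22 to 50 after the start: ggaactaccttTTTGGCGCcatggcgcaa
Mcm6 held 3 matches and Mcm5 held 2, and in both promoters a pair of matches on opposite strands overlapped. Mcm7 held a second match, at bases 17 to 24 after the start, and 0 matches at its other listed start.

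The deposited values are log2 signals made by RMA, so a difference of 1 stands for a factor of 2. Array medians lay between 5.346 and 5.398. The targeted genes were lowest in the FAD DKO arrays: Hdac1 averaged 7.56 in FAD DKO, 8.12 in FAD and 8.44 in wild type, and Hdac2 averaged 7.80, 8.48 and 8.29 in the same order. For both genes the FAD DKO arrays lay below all 6 others, but neither was called in FAD DKO against FAD (limma adjusted p = 0.376 and 0.159). Where these probe sets lie relative to the deleted exons was not analysed here, and a probe outside those exons would not show the deletion. Microglia markers were bright, with all 9 measured markers at or above the median of all probe sets (5.35). Exactly equal values on several arrays were common, in 13330 of 22180 genes (60.1%) and in 7 of the 10 members, so the spread within a group is 0 in places. Bulk samples cannot tell fewer cycling cells from less RNA per cell.

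**Figure D1:**
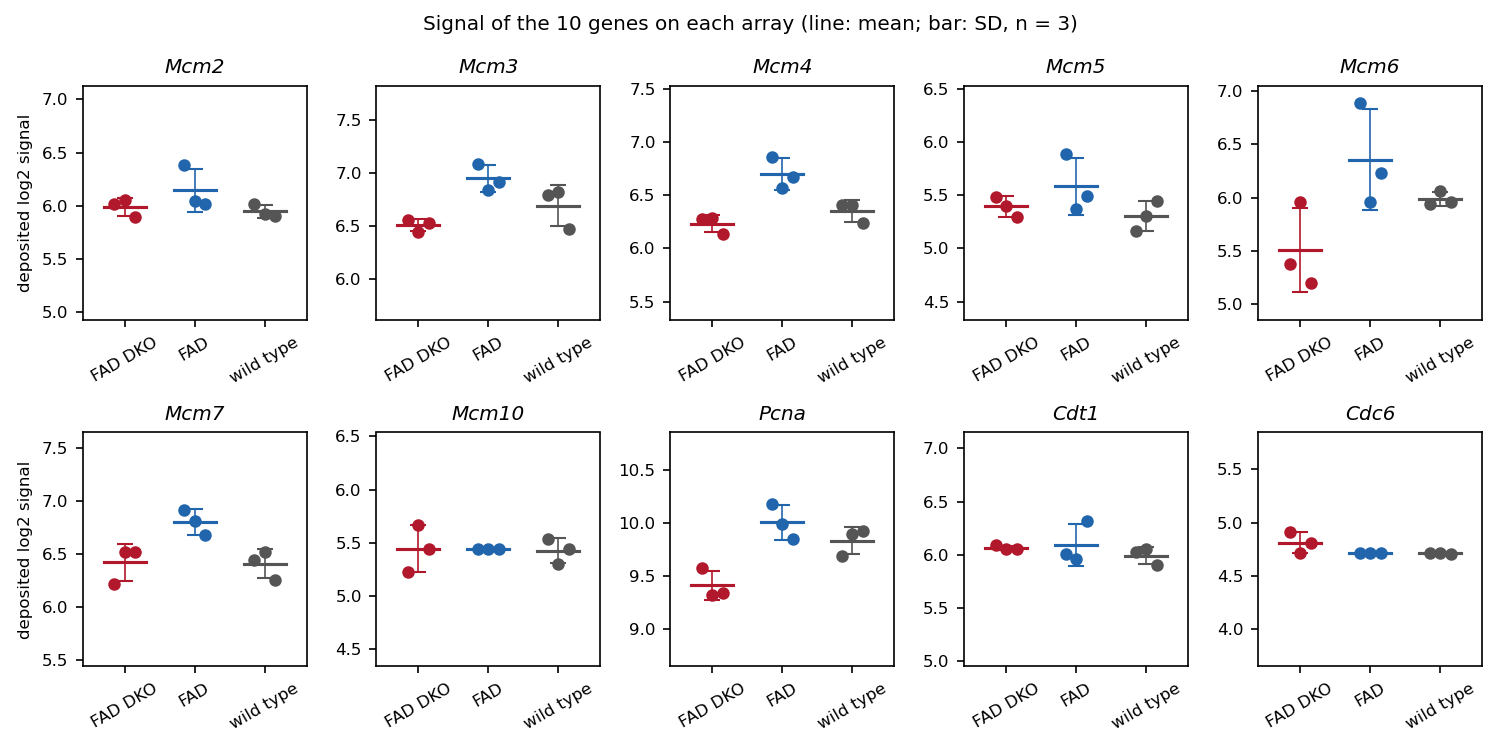
Deposited log2 signal (vertical axis, the same span in each panel) of the 10 genes on every array of FAD DKO, FAD and wild type microglia; points are arrays, lines are means and bars are SD (n = 3). For Mcm3, Mcm4, Mcm6, Mcm7 and Pcna, the FAD DKO points lie wholly below the FAD points, whereas Mcm10 and Cdc6 have 3 equal FAD points.

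The helicase subunits are described first. Mcm4, a core subunit of the ring, read 6.27, 6.29 and 6.14 in FAD DKO, 6.86, 6.57 and 6.67 in FAD, and 6.41, 6.41 and 6.24 in wild type. Every FAD array lay above every array of both other groups, which overlapped with each other. Mcm4 differed by -0.47 (SE 0.0934, 95% interval -0.68 to -0.26) in FAD DKO against FAD and by 0.35 (SE 0.0934, interval 0.14 to 0.56) in FAD against wild type. Neither passed in limma (adjusted p = 0.241 and 0.401).

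Mcm3 stood at 6.55, 6.45 and 6.53 in FAD DKO, 7.09, 6.84 and 6.92 in FAD, and 6.79, 6.82 and 6.47 in wild type. Its FAD arrays were again the highest of the 9, and wild type replicate 3 sat among the FAD DKO arrays. FAD replicate 2 (6.836) lay just above wild type replicate 2 (6.815), a gap far smaller than the SD in FAD (0.128) or wild type (0.191). The difference was -0.44 (SE 0.106) for FAD DKO against FAD and 0.25 (SE 0.106) for FAD against wild type, with limma adjusted p = 0.316 and 0.584. The second of these was 0.14 without wild type replicate 3.

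Mcm7, the subunit whose gene also hosts a cluster of microRNAs, read 6.22, 6.52 and 6.52 in FAD DKO, 6.92, 6.81 and 6.68 in FAD, and 6.44, 6.52 and 6.26 in wild type. Again the FAD arrays did not overlap either group. Its difference was -0.38 (SE 0.112, limma adjusted p = 0.409) in FAD DKO against FAD and 0.40 (SE 0.112, adjusted p = 0.436) in FAD against wild type. FAD DKO and wild type means were 6.42 and 6.41. Probe sets listed under Mcm7 together with Mir25 or Mir93 were not used and did not repeat the lower level in FAD DKO. In that order they were at 0.02 and 0.12 in FAD DKO against FAD, and at 0.17 and -0.07 in FAD against wild type.

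The widest spread belonged to Mcm6, with 5.37, 5.96 and 5.20 in FAD DKO, 6.89, 5.96 and 6.23 in FAD, and 5.94, 6.06 and 5.96 in wild type. FAD DKO replicate 2 (5.955) lay just below FAD replicate 2 (5.956), so the absence of overlap rests on a gap far smaller than the SD of Mcm6 in FAD DKO (0.397) or FAD (0.478). Mcm6 had the largest difference of the members in FAD DKO against FAD, at -0.85 (SE 0.247, interval -1.41 to -0.29, limma adjusted p = 0.407). It was -0.58 without FAD replicate 1 and -1.07 without FAD DKO replicate 2. Against wild type, FAD differed by 0.37 (SE 0.247, adjusted p = 0.724), or 0.11 without FAD replicate 1.

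Mcm2 and Mcm5, the remaining subunits of the ring, had its smallest differences in FAD DKO against FAD. Mcm2 read 6.01, 6.06 and 5.89 in FAD DKO, 6.38, 6.04 and 6.01 in FAD, and 6.01, 5.92 and 5.90 in wild type. For Mcm5 the values were 5.49, 5.40 and 5.29 in FAD DKO, 5.89, 5.37 and 5.49 in FAD, and 5.17, 5.31 and 5.44 in wild type. In both genes FAD replicate 1 stood apart. The other FAD arrays of Mcm2 lay within the range of the other groups, as did FAD replicate 2 of Mcm5. FAD replicate 3 of Mcm5 (5.494) lay just above the highest array of the other groups (FAD DKO replicate 1, 5.488). In FAD DKO against FAD, Mcm2 differed by -0.16 and Mcm5 by -0.19 (limma adjusted p = 0.701 and 0.722), and both were at -0.04 without FAD replicate 1. In FAD against wild type they differed by 0.20 and 0.28 (adjusted p = 0.663 and 0.639), and by 0.08 and 0.12 without that array.

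Pcna, the sliding clamp, read 9.57, 9.32 and 9.35 in FAD DKO, 10.18, 9.99 and 9.85 in FAD, and 9.69, 9.90 and 9.92 in wild type. The FAD DKO arrays lay below all 6 others, while FAD and wild type overlapped. Group means were 9.41 ± 0.139 in FAD DKO, 10.01 ± 0.164 in FAD and 9.84 ± 0.129 in wild type (SD, n = 3). Pcna differed by -0.59 in FAD DKO against FAD (SE 0.111, interval -0.85 to -0.34), which is 0.663 times the FAD level, and ranked 47 of 22180 genes by p in that comparison. The adjusted p was 0.218 in limma, and the lowest over all alternative settings was 0.0759, with a trended and robust variance model. Against wild type, FAD DKO differed by -0.42 (SE 0.111, adjusted p = 0.293) and FAD by 0.17 (SE 0.111, adjusted p = 0.715; 0.09 without FAD replicate 1).

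The loading and activation factors did not follow this order. Cdt1, which brings the Mcm ring to origins, read 6.09, 6.06 and 6.05 in FAD DKO, 6.01, 5.96 and 6.32 in FAD, and 6.02, 6.05 and 5.90 in wild type. Its groups overlapped in all 3 comparisons, and the difference of FAD DKO from FAD, -0.03 (interval -0.25 to 0.19), became 0.08 without FAD replicate 3. Cdc6, the ATPase that acts with Cdt1, read 4.91, 4.72 and 4.81 in FAD DKO and 4.72 on all 3 FAD arrays. Wild type arrays gave 4.72, 4.72 and 4.70. Its mean over the 9 arrays (4.75) was under the median probe set (5.35), and 6 of the 9 arrays shared 1 value, so these data carry little information on Cdc6. Mcm10 read 5.23, 5.67 and 5.44 in FAD DKO, 5.44 on all 3 FAD arrays and 5.54, 5.30 and 5.44 in wild type. Of the 9 arrays, 5 shared 1 value of Mcm10 (5.44), so these data carry limited information on it too. The Mcm10 differences lay between 0.00 and 0.02 in the 3 comparisons. The one of FAD DKO from FAD turned to -0.00294 with quantile normalization and to -0.0444 with array weights.

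**Figure D2:**
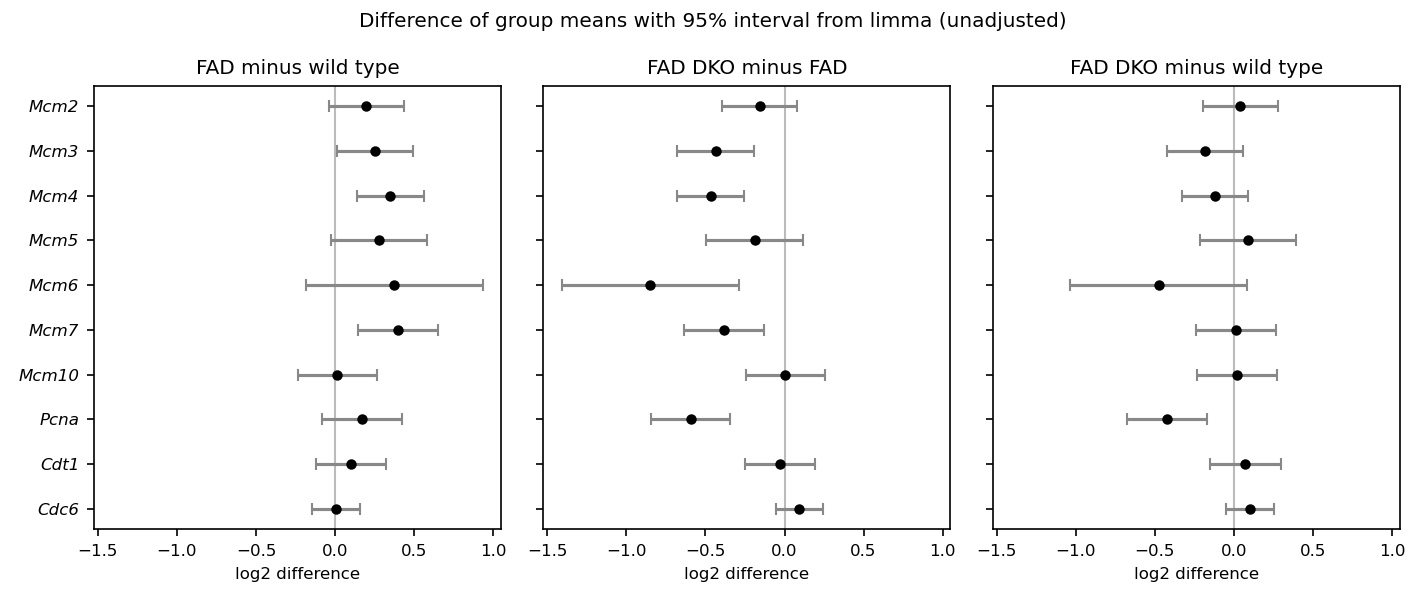
Difference of group means (log2, horizontal axis) for each gene in FAD against wild type, FAD DKO against FAD and FAD DKO against wild type, with unadjusted 95% intervals from limma. Intervals exclude 0 for Mcm3, Mcm4 and Mcm7 in the left panel, for these genes, Mcm6 and Pcna in the middle panel, and for Pcna in the right panel.

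Read over the set, FAD DKO against FAD gave 8 of 10 members below 0 and a median of -0.29, beside 46.7% of all genes below 0 and a median of 0.01. No overlap between groups, with FAD DKO lower, was seen in 5 members (Mcm3, Mcm4, Mcm6, Mcm7 and Pcna), and in 6.5% of all genes. The same 5 genes had an unadjusted p under 0.05, as did 4.41% of all genes with the lower value in FAD DKO. In limma 0 of 10 members were called at an adjusted p under 0.05, where 0.0225% of all genes were. The median was -0.20 without FAD replicate 1, and 5 members then still had an unadjusted p under 0.05.

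In FAD against wild type, 10 of 10 members lay above 0 with a median of 0.23, beside 47.9% of all genes above 0 and a median of -0.01. That count includes Cdc6 at 0.006 and Mcm10 at 0.015, and was 9 to 10 over the fits without 1 array. Mcm3, Mcm4 and Mcm7 did not overlap, with FAD higher (6.37% of all genes), and these 3 had an unadjusted p under 0.05 (4.41% of all genes, with FAD higher). In limma 0 members were called and 0.0406% of all genes were. The median was 0.12 without FAD replicate 1, with 2 members at an unadjusted p under 0.05, and 5 members had one without FAD replicate 2. The FAD arrays are shared with the comparison above, on its other side, so a high FAD value enters both.

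The means compared in FAD DKO against wild type leave out the FAD arrays, although the variance behind its p-values is pooled over all 9 arrays. There 4 members lay below 0 and 6 above, with a median of 0.02 (48.7% of all genes below 0, median 0.00). Pcna was the only member whose groups did not overlap, with FAD DKO lower (6.15% of all genes), and the only one with an unadjusted p under 0.05 (4.19% of all genes, with FAD DKO lower). That count was 2 members without FAD replicate 1, without wild type replicate 3 or without FAD DKO replicate 2. Of the helicase ring, Mcm6 was at -0.48 (interval -1.03 to 0.08), Mcm3 at -0.18 and Mcm4 at -0.12, and Mcm2, Mcm5 and Mcm7 lay between 0.01 and 0.09. In limma 0 members were called, where 0.14% of all genes were.

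One array carried much of the FAD level. FAD replicate 1 was the highest of the 9 arrays for 7 of the 10 members (Mcm2 to Mcm7 and Pcna) and for 11.2% of all genes. The mean of Mcm2 to Mcm7, centred over the 9 arrays, was -0.20, -0.07 and -0.25 in FAD DKO, 0.49, 0.08 and 0.15 in FAD, and -0.06, -0.01 and -0.14 in wild type. The 3 FAD arrays were thus the 3 highest with or without replicate 1, but the other FAD arrays lay closer to the highest wild type array than to FAD replicate 1.

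**Figure D3:**
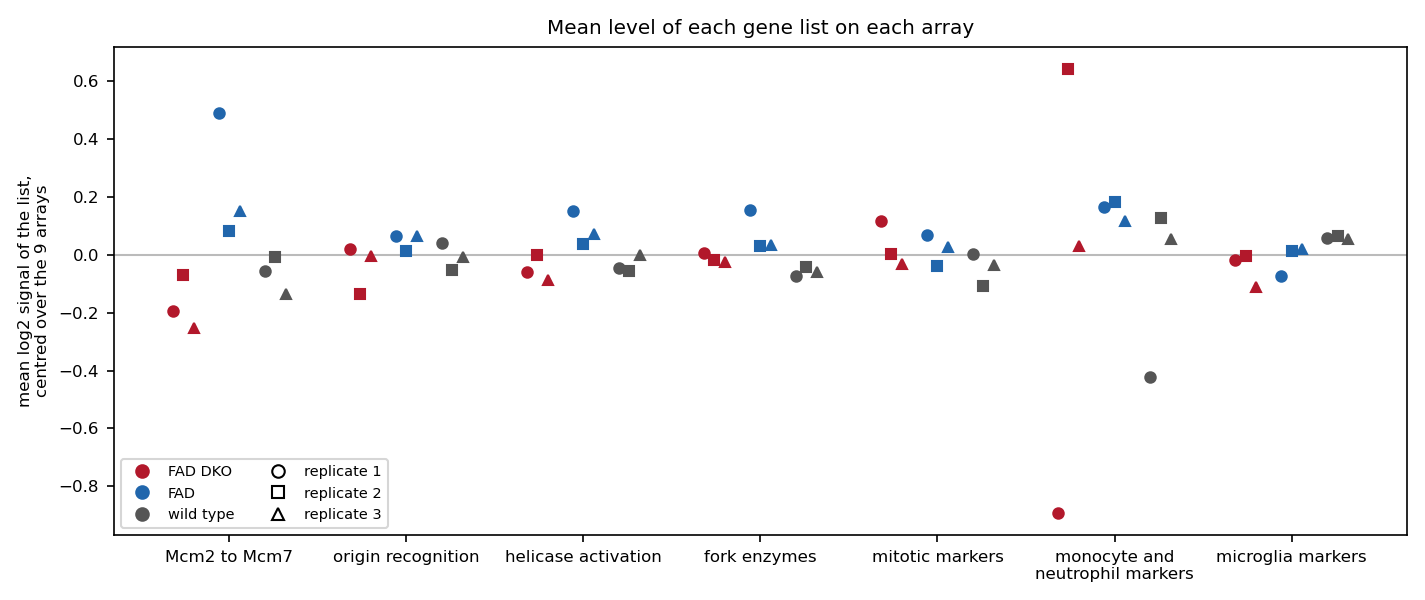
Mean log2 signal of each gene list on each array, centred over the 9 arrays (vertical axis); colour marks the group and shape the replicate number. FAD replicate 1 lies at 0.49 for Mcm2 to Mcm7, and the marker list of monocytes and neutrophils spreads from -0.89 to 0.64 within FAD DKO.

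The 6 ring subunits varied together. Over the 9 arrays the 15 pairs among Mcm2 to Mcm7 had Pearson correlations between 0.454 and 0.93 with a median of 0.745, beside a median of 0.0131 over all pairs of the 11531 genes at or above the median level that varied. With group means removed, their median was 0.525 (from -0.0632 to 0.859). With group means kept, the median was 0.336 over 8 arrays without FAD replicate 1. Without FAD replicates 1 and 3, the arrays farthest from the median of the profile, it was 0.28 over 7 arrays. The relation thus rests largely on FAD replicate 1. These correlations share arrays and are given with no test.

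Mcm4 followed the mean of the other members most closely (correlation 0.970), and Mcm10 (-0.00332), Cdt1 (0.0736) and Cdc6 (-0.520) did not follow it. Among 10323 other protein-coding genes at or above the median level, Nup155 (0.980), Pfdn6 (0.967), Cdc27 (0.963), Tnfrsf21 (0.957) and Nup93 (0.952) had the highest correlation with the mean profile of Mcm2 to Mcm7 over the 9 arrays. Nup155 and Nup93 encode nuclear pore proteins, Cdc27 a subunit of the anaphase-promoting complex, Pfdn6 a prefoldin subunit and Tnfrsf21 a death receptor. Over the 9 arrays, FAD replicate 1 included, the SD was 0.145 for Nup155 and between 0.0587 and 0.0846 for the other genes named. Nup155 itself differed by -0.27 in FAD DKO against FAD and by 0.20 in FAD against wild type. It was picked for its correlation over these same arrays, so these directions follow from the choice.

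**Figure D4:**
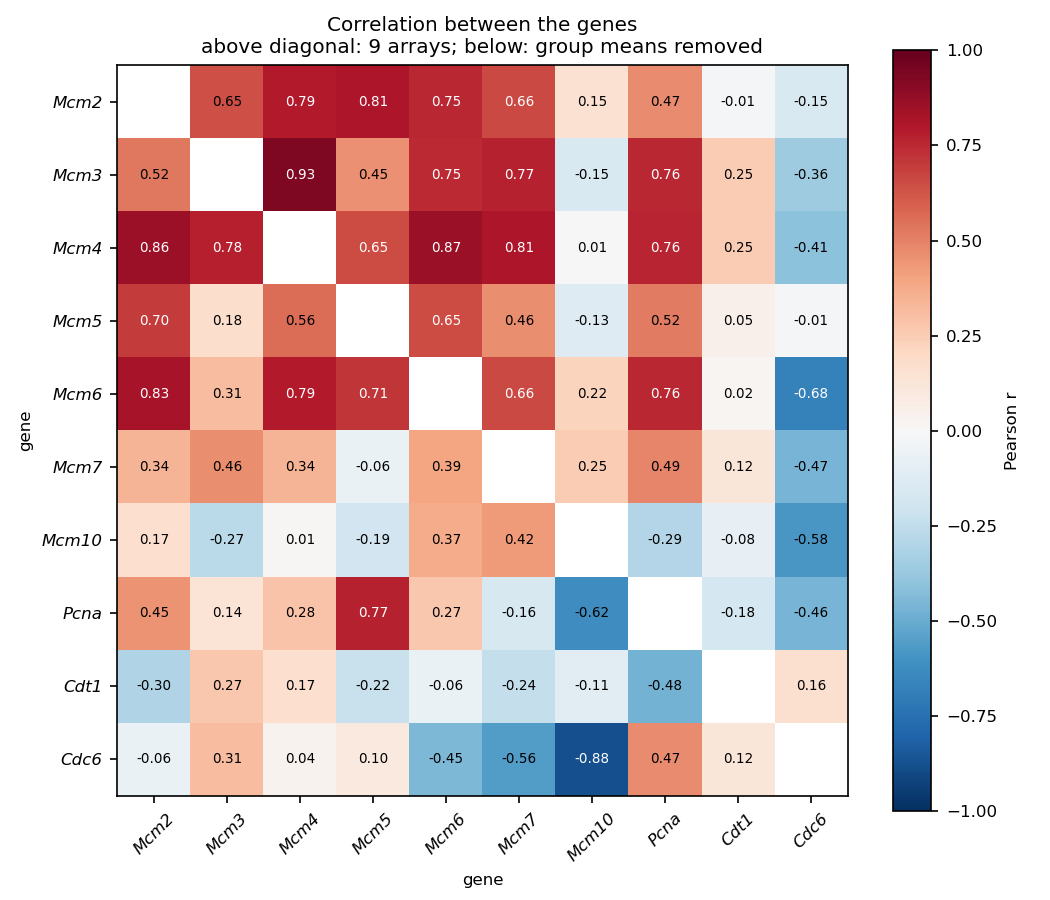
Pearson correlation between each pair of the 10 genes (colour and printed value), over 9 arrays above the diagonal and with group means removed below it. Values among Mcm2 to Mcm7 above the diagonal lie between 0.454 and 0.93, and those of Mcm10, Cdt1 and Cdc6 with other genes lie closer to 0 or below it.

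Other genes of DNA replication were read from fixed lists. In helicase activation (Cdc45, the GINS ring and the Cdc7-Dbf4 kinase among them), 9 of 11 genes lay below 0 in FAD DKO against FAD with a median of -0.09, and 10 of 11 above 0 in FAD against wild type with a median of 0.12. Gins1, a GINS subunit, read 5.08, 4.85 and 4.78 in FAD DKO, 5.50, 5.31 and 5.38 in FAD and 5.14 on all 3 wild type arrays. The 3 groups of Gins1 did not overlap, and it differed by -0.50 (SE 0.0899) in FAD DKO against FAD, with limma adjusted p = 0.212. The mean of Gins1 over the 9 arrays (5.15) was under the median probe set (5.35). Dbf4, the activator of the Cdc7 kinase, read 5.59 on all 3 FAD DKO arrays, 5.86, 5.66 and 5.82 in FAD, and 5.52, 5.37 and 5.52 in wild type. Its difference of FAD from wild type was 0.31 (adjusted p = 0.345).

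Fork enzymes, which include the polymerases and primase, had 15 of 21 genes below 0 in FAD DKO against FAD (median -0.11) and 17 of 21 above 0 in FAD against wild type (median 0.07). Prim1, the catalytic subunit of primase, averaged 5.20 in FAD DKO, 5.58 in FAD and 5.05 in wild type. Its mean over the 9 arrays (5.28) was also under the median probe set (5.35). The difference was -0.38 in FAD DKO against FAD and 0.53 in FAD against wild type (limma adjusted p = 0.572 and 0.445). Rrm1, the large subunit of ribonucleotide reductase, averaged 6.21 in FAD DKO, 6.48 in FAD and 6.23 in wild type (-0.27 in FAD DKO against FAD, adjusted p = 0.431). Rrm2, the small subunit of the same enzyme, averaged 4.55 in FAD DKO, 4.26 in FAD and 4.05 in wild type. It differed by 0.30 in FAD DKO against FAD and by 0.51 in FAD DKO against wild type (adjusted p = 0.702 and 0.536). Its FAD DKO arrays read 5.03, 4.32 and 4.32 and its FAD arrays 4.20, 4.32 and 4.26, so FAD DKO replicate 1 stood apart. The mean of Rrm2 over all arrays (4.29) was under the median probe set (5.35). Tyms, thymidylate synthase, differed by -0.23 in FAD DKO against FAD (adjusted p = 0.424).

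Origin recognition, which marks the sites that Cdc6 and Cdt1 act on, had 4 of 6 genes below 0 in FAD DKO against FAD (median -0.03) and 4 of 6 above 0 in FAD against wild type (median 0.06). Orc2 was its lowest member in the first, at -0.30 (limma adjusted p = 0.59). The loaders and unloaders of the Pcna clamp had 6 of 7 genes below 0 and a median of -0.04 in FAD DKO against FAD, with differences from -0.10 to 0.06. PCNA-associated chromatin and repair factors had 5 of 8 below 0 (median -0.07), and Msh6, a mismatch repair protein, was at -0.19 (adjusted p = 0.649). The other MCM-related genes had 3 of 4 below 0 (median -0.11), and deoxynucleotide supply had 4 of 6 below 0 (median -0.12).

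Among regulators, the licensing inhibitors and turnover factors, with Gmnn (geminin, which binds Cdt1), had 5 of 7 genes below 0 in FAD DKO against FAD (median -0.05). Gmnn itself went the other way, averaging 5.23 in FAD DKO and 5.14 in FAD, with FAD DKO replicate 3 apart at 5.53. Cul4b, a ubiquitin ligase scaffold, was at -0.21 (limma adjusted p = 0.615). E2F and pocket protein genes were split, with 7 of 13 below 0 (median -0.02). E2f3, an activating E2F, was at -0.23 and Rb1, the retinoblastoma pocket protein, at 0.26 (adjusted p = 0.561 and 0.45). Over these lists and the mitotic markers, 102 genes in 10 lists, 0 were called in limma in any comparison. In FAD DKO against FAD, 11 of them were lower and 2 higher at an unadjusted p under 0.05, where 4.41% of all genes were lower and 3.69% higher. In FAD against wild type 12 were higher and 0 lower, beside 4.41% and 4.02% of all genes. For FAD DKO against wild type these counts were 2 lower and 3 higher, beside 4.19% and 3.95%.

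Mitotic markers were read in the same way. Of 19 measured, 11 lay below 0 in FAD DKO against FAD (median -0.01, from -0.14 to 0.17), with 0 at an unadjusted p under 0.05 and 0 called in limma. In FAD against wild type 12 lay above 0 (median 0.05), with 2 higher at an unadjusted p under 0.05, as were 4.41% of all genes. Mki67, the classical proliferation marker, read 6.08, 5.77 and 5.71 in FAD DKO, 5.73, 5.58 and 5.72 in FAD, and 5.65, 5.63 and 5.71 in wild type. Top2a, topoisomerase II alpha, averaged 5.10 in FAD DKO, 5.13 in FAD and 4.81 in wild type (FAD minus wild type 0.32, adjusted p = 0.505). Only 7 of the 19 markers were at or above the median of all probe sets. The difference between the mitotic list and the members was not tested.

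**Figure D5:**
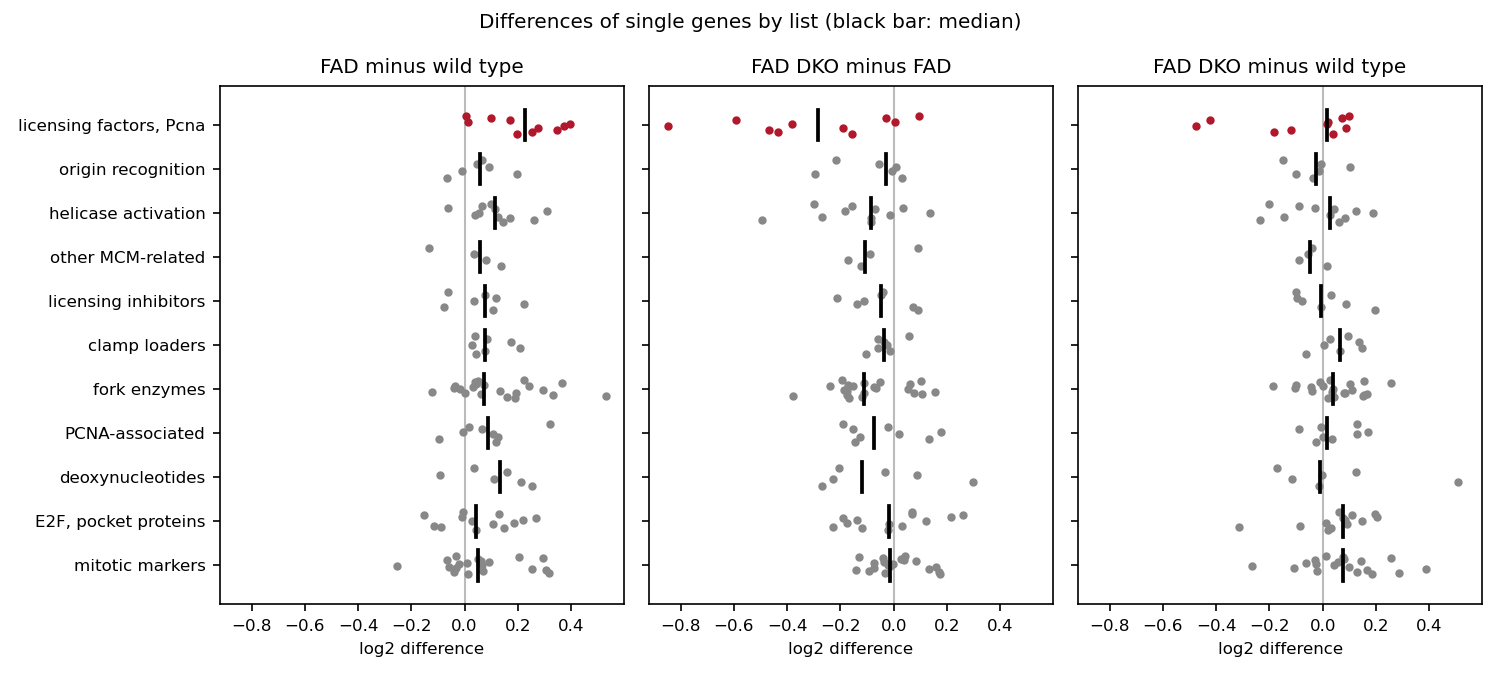
Log2 difference (horizontal axis) of every gene of each list in the 3 comparisons; points are genes and black bars are list medians, with the licensing factors and Pcna in red. In the middle panel the licensing set has a median of -0.29, and the medians of the other lists lie between -0.12 and -0.01.

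Markers of other cells were read beside these values. The 15 markers of monocytes and neutrophils had 14 above 0 in FAD against wild type (median 0.24) and 12 below 0 in FAD DKO against FAD (median -0.20). Their centred mean ran from -0.89 to 0.64 in FAD DKO, from 0.12 to 0.18 in FAD and from -0.42 to 0.12 in wild type. FAD DKO replicate 1 was at the low end of that range and replicate 2 at its high end. Of the 10 members, 5 were higher on replicate 2 than on replicate 1 (among them Mcm6 at 5.96 and 5.37, Mcm7 at 6.52 and 6.22 and Mcm10 at 5.67 and 5.23) and 5 were lower (among them Pcna at 9.32 and 9.57). The centred mean of Mcm2 to Mcm7 was -0.07 on replicate 2 and -0.20 on replicate 1. Of these markers, 12 of 15 were at or above the median of all probe sets. The part of these cells in the differences was not tested. Of the lymphocyte markers, 2 of 11 reached the median of all probe sets; their median was 0.09 in FAD DKO against FAD and -0.07 in FAD against wild type. Microglia markers had medians of 0.01 and -0.06 in the same comparisons.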

How the data were processed

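The authors deposited 1 log2 signal per probe set for each of 9 one-colour arrays. The submitters' processing notes name RMA, a method that corrects background, makes the arrays' distributions equal and summarises probes. RNA was amplified and biotin-labelled, per the labels' protocols. The RMA software, its version and annotation are not named in the sources read; signal over background was not analysed.

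Of 41345 probe sets, 23521 had 1 gene symbol in the platform annotation, and the brightest per symbol gave 22180 genes. Each member had 1 such probe set, and 2 more listed under Mcm7 together with a microRNA gene were not used. Listed genes without a match were not analysed here.

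Differences were fitted with limma 3.58.1 in R 4.3.3 (lmFit, eBayes, all 9 arrays, 6 residual degrees of freedom, 8.98 after moderation). P-values are two-sided, Benjamini-Hochberg adjusted over all 22180 genes and called under 0.05. The fit was tested on simulated data. The number of arrays limits precision. Figures used Python 3.11.15 and matplotlib 3.10.9.

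The members, lists, tests and alternatives were chosen with earlier results of these data known. The rule named the members, Hdac1, Hdac2, the 2 genes of smallest p per list and comparison (a part is given) and the 5 genes most correlated with the mean of Mcm2 to Mcm7. Alternatives are given at the end.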

Additional observations from a re-analysis of the deposited data

How the results depend on the processing

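The 30 differences of single members were recomputed under 17 alternatives, giving 507 values, since the low-signal filter does not test Cdc6. Of these 0 were called. Many of the values could not turn direction, because the alternative left the difference of a member unchanged by design. Such were the low-signal filter, the trended and robust variance model and the mean of probe sets. The fits of every probe set, with the replicate block or of only the compared groups were too. Leaving out an array of the group not compared also kept the difference. Among the rest, 12 turned direction, all of Mcm7, Mcm10 or Cdt1. These were Mcm10 in FAD DKO against FAD (-0.002939 with quantile normalization, -0.04441 with array weights) and Mcm7 in FAD DKO against wild type (-0.04012 with array weights); the rest came from leaving out 1 array. Those fits spanned -0.04765 to 0.06948 for Mcm10 and -0.01041 to 0.1689 for Cdt1 in FAD against wild type, and -0.1069 to 0.1138 for Mcm10 and -0.09605 to 0.08327 for Cdt1 in FAD DKO against FAD. In FAD DKO against wild type they spanned -0.06036 to 0.1171 for Mcm7 and -0.09239 to 0.1284 for Mcm10. The cause was not tested.

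In FAD DKO against FAD the number of members above 0 was 1, not 2, with the low-signal filter, quantile normalization or array weights, and 1 to 3 without 1 array. Medians of the members ran from -0.34 to -0.20 in FAD DKO against FAD, 0.12 to 0.28 in FAD against wild type and -0.06 to 0.03 in FAD DKO against wild type over the 9 fits without 1 array, so the last of these has no settled direction. The count of all genes called was 5 in FAD DKO against FAD and ran from 0 to 12 over the alternatives. It was 9 (5 to 43) in FAD against wild type and 31 (2 to 124) in FAD DKO against wild type.

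A block by replicate number cannot change a difference of group means here, because every group holds each number. The medians were thus the same by design (-0.285 in FAD DKO against FAD and 0.2261 in FAD against wild type). For FAD DKO against wild type the median was 0.01688. Only the spread could change, and 0 members were called with the block. Deviations of same-numbered arrays correlated between -0.11 and 0.122, and those of differently numbered arrays between -0.189 and 0.129. The labels state no pairing, and these few values cannot tell whether same-numbered arrays shared a batch.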
